A study of Mus musculus with 30 samples.

Results

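The motile cilium of airway cells is built on an axoneme, and 53 of the 53715 genes counted here encode axonemal or axoneme-associated proteins named for cilia and flagella. They are all protein-coding genes whose symbol starts with Cfap (cilia and flagella associated protein), Rsph (radial spoke head), Tekt (tektin) or Drc (dynein regulatory complex) followed by a digit, together with Hydin, Spef1, Spef2, Spag6, Spag16 and Spag17. The choice used gene symbols only, not measured values. Genes of the same structures with other symbols, such as Gas8 and Ccdc65 of the dynein regulatory complex, fall outside it.

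Messenger RNA was sequenced from mouse embryos with and without a conditional knockout of Myocd, the gene of myocardin, a coactivator of serum response factor in muscle cells. Mutants carried Tbx4rtTAi/+, tetOcrei/+ and MyocdF/F. These are a tetracycline-responsive transactivator with a Tbx4 driver, a Cre gene under the transactivator's control and floxed Myocd on both chromosomes. Controls carried Tbx4rtTAi/+, tetOcrei/+ and MyocdF/+, so the transactivator, the Cre and a floxed allele were also present in them. The exception was E13.5 lung control replicate 1, which was MyocdF/F with neither transgene. At E13.5 the right and left lung lobes were taken, with 5 control and 5 mutant libraries. At E18.5 the right lung lobes and the trachea were taken, each with 4 control and 6 mutant libraries. Tbx4 drives expression in the mesenchyme of the lung and trachea, not in their epithelium, where multiciliated cells lie. The labels do not state the doxycycline schedule, and all libraries are bulk tissue, each from a single lung or trachea. In bulk tissue, fewer cells of a type and less RNA per cell cannot be told apart.

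The axoneme of a motile cilium is a ring of doublet microtubules around a central pair. Outer and inner dynein arms slide the doublets, the radial spokes and the projections of the central apparatus pass signals between the central pair and the ring, and the nexin-dynein regulatory complex links neighbouring doublets and regulates the inner arms. Tektins and other microtubule inner proteins line the doublets from within. In the airway many of these genes, but not all, are switched on together in multiciliated cells, under FOXJ1 and RFX transcription factors. Their products are known for moving mucus, and defects in many of them cause primary ciliary dyskinesia.

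The libraries held between 17.4 and 28.5 M counts at E13.5, between 19.9 and 32.8 M for E18.5 lung and between 11.7 and 30.5 M for trachea. Levels are given as counts per M (CPM) on library sizes scaled within each tissue and stage. Sftpc, the surfactant gene of alveolar type 2 cells, was between 8698 and 10300 CPM in E18.5 control lungs and between 13.4 and 26.4 CPM in control tracheas. Col2a1 of cartilage was between 6224 and 10050 CPM in control tracheas and between 0.761 and 3.83 CPM in control lungs. Foxj1, which defines the multiciliated cell, was between 1.18 and 2.01 CPM in E13.5 control lungs, 54.3 and 69.0 CPM in E18.5 control lungs, and 205.7 and 233.6 CPM in control tracheas. Myocd counts did not check the labels: its log2 fold change in mutants was -0.29 at E13.5 (adjusted p = 0.998 by edgeR), -0.35 for E18.5 lung (adjusted p = 0.651) and 0.26 for trachea (adjusted p = 0.911). Myh11, the smooth muscle myosin that myocardin activates, was lower in mutants in E18.5 lung by 0.37 (adjusted p = 0.0426) and in trachea by 2.02 on the log2 scale (adjusted p = 7.2e-05).

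In E18.5 lung 15 motile cilium genes were lower in mutants, and they came from 5 of the 6 groups of structures. Of the 51 members that passed the filter on low counts and were tested, 15 were lower and 0 higher by edgeR's quasi-likelihood test at an adjusted p under 0.05, against 0.584% of all 17467 genes tested (0.55% lower and 0.0344% higher). By DESeq2 the counts were 22 lower and 0 higher, where it called 217 of all 17467 genes lower (1.24%) and 47 higher. At an unadjusted p under 0.05 they were 34 lower and 0 higher. Unadjusted counts, here and below, have no count over all genes beside them. The log2 fold change of mutant over control was below 0 in 46 of the 51, with a median of -0.69 where all genes tested had 0.005. The quartiles were -0.83 and -0.38, and 25 members lay within 0.2 of their median. The 15 called members were 1.62 to 2.15 times lower in mutants. In all 15, and in 20 members in all, every mutant library lay below every control library, which holds for 1.76% of all genes tested. The 5 of the 20 that did not pass the test were Cfap53, Cfap57, Drc7, Rsph14 and Tekt2.

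**Figure D1:**
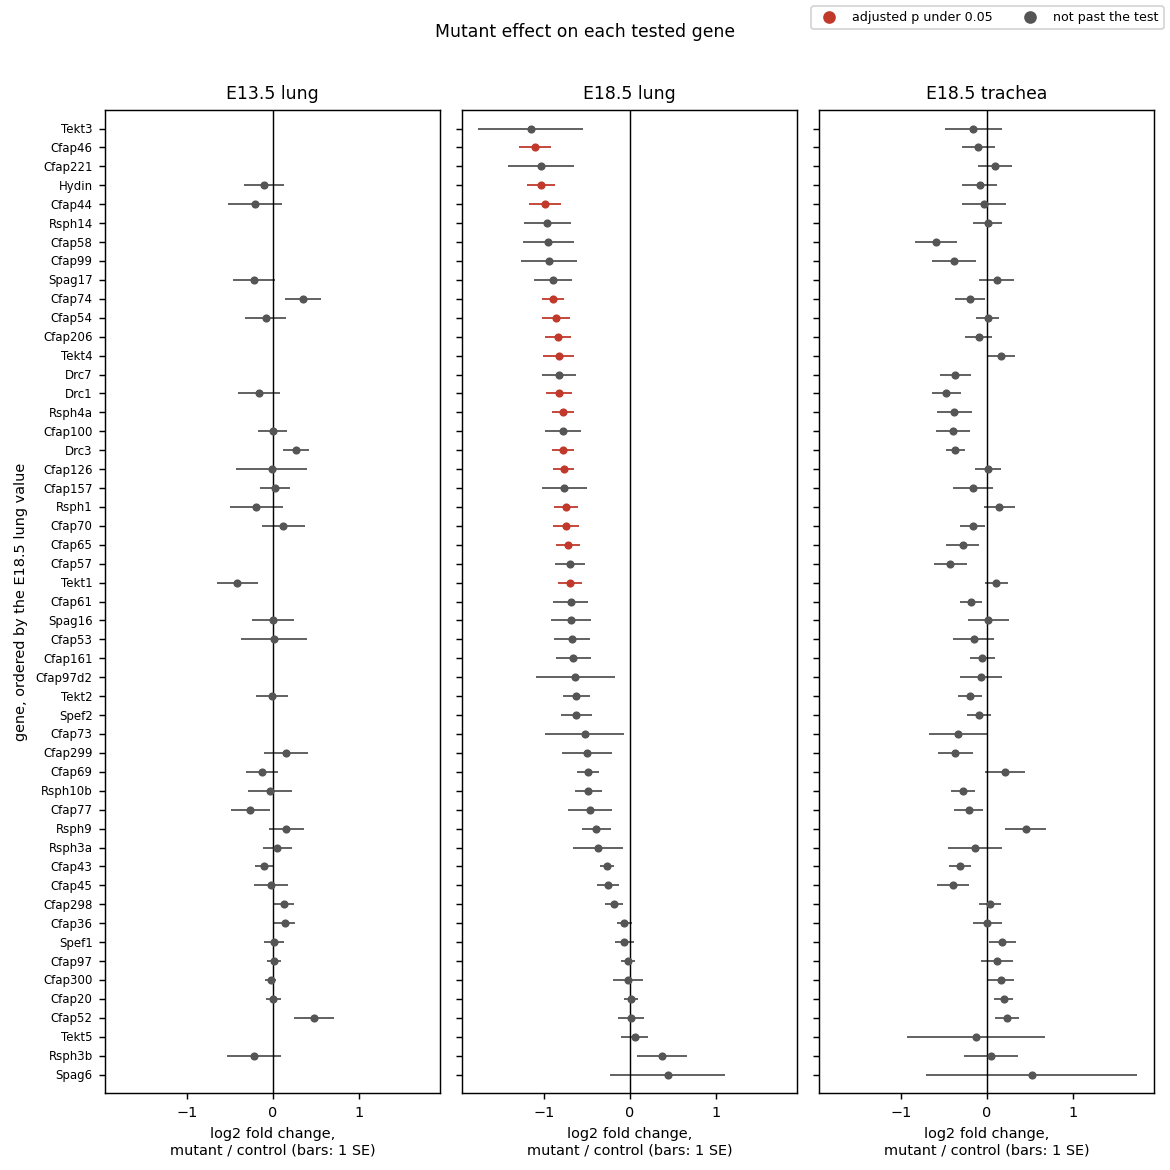
Mutant effect on each tested gene. Points are log2 fold changes of mutant over control (x axis) for each gene (y axis, in the order of the E18.5 lung value) in E13.5 lung, E18.5 lung and E18.5 trachea, bars are 1 standard error (SE), and red points have an adjusted p under 0.05. The red points, 15 genes, are all in the E18.5 lung panel, where 46 of 51 points lie left of 0.

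Promoter sequences are shown for all 11 called genes that have a RefSeq promoter, in the order of their p, and for 3 inner protein genes with changes near 0 (Cfap52, Cfap20 and Tekt5). They were searched for GTTGCC, 6 letters of the longer X-box, the motif at which RFX factors are known to bind promoters of cilium genes. The sequences are the 100 bases before the RefSeq start (GRCm38.p6, the most upstream start where a gene has several), 5′ to 3′ on the gene's strand, and capitals mark a GTTGCC on either strand (GGCAAC when read on the other).
Cfap74 (chr4:155409090-155409189, + strand): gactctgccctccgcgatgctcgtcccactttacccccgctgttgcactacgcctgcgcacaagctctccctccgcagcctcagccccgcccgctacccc
Cfap126 (chr1:171113886-171113985, + strand): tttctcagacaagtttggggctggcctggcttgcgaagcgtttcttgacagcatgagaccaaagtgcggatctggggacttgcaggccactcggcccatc
Hydin (chr8:110266877-110266976, + strand): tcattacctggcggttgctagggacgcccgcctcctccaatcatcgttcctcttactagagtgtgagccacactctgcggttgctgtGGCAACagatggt
Drc3 (chr11:60353280-60353379, + strand): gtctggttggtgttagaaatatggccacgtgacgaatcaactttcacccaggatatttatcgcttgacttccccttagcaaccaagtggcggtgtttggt
Cfap46 (chr7:139683816-139683915, - strand): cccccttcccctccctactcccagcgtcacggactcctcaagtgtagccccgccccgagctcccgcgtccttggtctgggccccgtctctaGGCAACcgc
Cfap206 (chr4:34730207-34730306, - strand): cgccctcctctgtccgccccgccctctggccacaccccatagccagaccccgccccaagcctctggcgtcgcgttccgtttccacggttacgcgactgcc
Drc1 (chr5:30281293-30281392, + strand): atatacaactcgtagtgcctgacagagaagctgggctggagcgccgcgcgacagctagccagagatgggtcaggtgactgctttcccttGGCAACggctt
Cfap44 (chr16:44394699-44394798, + strand): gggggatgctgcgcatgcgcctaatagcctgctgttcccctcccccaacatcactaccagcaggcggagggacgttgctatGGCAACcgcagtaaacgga
Tekt1 (chr11:72361883-72361982, - strand): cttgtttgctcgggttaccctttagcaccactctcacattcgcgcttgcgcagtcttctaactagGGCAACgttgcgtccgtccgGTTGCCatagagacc
Cfap70 (chr14:20452226-20452325, - strand): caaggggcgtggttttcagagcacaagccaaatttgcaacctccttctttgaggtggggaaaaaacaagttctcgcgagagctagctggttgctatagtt
Tekt4 (chr17:25471490-25471589, + strand): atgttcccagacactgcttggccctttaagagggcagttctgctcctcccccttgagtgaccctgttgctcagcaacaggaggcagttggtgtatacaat
Cfap52 (chr11:67965643-67965742, - strand): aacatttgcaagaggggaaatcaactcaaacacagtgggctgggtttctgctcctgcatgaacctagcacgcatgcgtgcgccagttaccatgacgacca
Cfap20 (chr8:95434870-95434969, - strand): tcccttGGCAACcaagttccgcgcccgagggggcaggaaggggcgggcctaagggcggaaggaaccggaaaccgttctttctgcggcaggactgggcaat
Tekt5 (chr16:10395456-10395555, - strand): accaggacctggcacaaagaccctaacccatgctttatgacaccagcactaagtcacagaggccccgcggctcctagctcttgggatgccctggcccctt

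Counting the base before the start as -1, the match began at base -13 in Hydin, -9 in Cfap46, -11 in Drc1 and -19 in Cfap44. Tekt1 held 2 matches, on opposite strands, beginning at bases -35 and -15. Cfap74 had none in the bases shown, and 1 at base -37 of its other RefSeq start. The printed bases of Cfap126, Drc3, Cfap206, Cfap70 and Tekt4, all called, held no GTTGCC. Among the genes near 0, Cfap20 held 1 at base -94, and Cfap52 and Tekt5 held none. RefSeq promoters of 300 bases (250 before the start to 50 after it) were matched to 43 of the 53 members. On either strand GTTGCC lay within the last 50 bases before the start in 10 of 43 members (23.3%), against 2.85% of 27025 genes. Among the 11 called members with a promoter it lay there in 6 (54.5%). Over the whole 300 bases, 19 of 43 members (44.2%) and 14.1% of all genes held it. The looser GTTNCC, which includes every GTTGCC, was found in 79.1% of members and 48.8% of genes. The forkhead letters TGTTTA were found in 6 of 43 members and 15.1% of genes, and TGTTTAC, which contains them, in 3 of 43 and 4.05%. Both were found in 0 of the 11 called members. A 14-letter form of the longer X-box was also searched for. Over the whole 300 bases it was found in 1 of 43 members (2.33%), in 0 of the 11 called members and in 0.529% of genes. Within the last 50 bases before the start it was found in 0 of 43 members and 0.167% of genes. These are letter matches, not measured binding.

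Among the central apparatus genes, 6 of 14 tested were lower in E18.5 mutant lungs, with a median log2 fold change of -0.80. Hydin (chromosome 8, 110266977 to 110610253, + strand) encodes a very large protein of a central pair projection. It was at 30.5, 16.45, 23.0 and 23.0 CPM in control lungs 1 to 4, and the 6 mutants ran from 8.14 to 14.5 CPM with a median of 11.1 CPM. Its log2 fold change was -1.03 (SE 0.164, adjusted p = 0.00764). Control 1 was the highest and control 2 the lowest of its group, yet no mutant reached control 2. Cfap46 (chromosome 7, 139600951 to 139683817, - strand), another projection protein, was at 21.1, 12.9, 21.5 and 17.1 CPM in controls, and at 5.54 to 11.9 CPM with a median of 8.51 CPM in mutants. Its change of -1.11 (SE 0.185, adjusted p = 0.00994) was the largest of the 15. Cfap74 (chromosome 4, 155409190 to 155466823, + strand) had the smallest p of all members. It was at 21.3, 16.2, 20.8 and 24.6 CPM in controls and at 9.36 to 12.4 CPM in mutants, median 11.1 CPM, a change of -0.89 (SE 0.126, adjusted p = 0.00326). Its 6 mutant libraries lay close together, all below the lowest control.

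Cfap54, also of a central pair projection, was at 18.9, 10.7, 13.2 and 13.3 CPM in controls and at 5.71 to 9.07 CPM in mutants with a median of 7.72 CPM. Control 1 stood highest again, and the change was -0.86 (SE 0.166, adjusted p = 0.0192). Cfap65 and Cfap70 fell by 0.72 and 0.74 on the log2 scale, with adjusted p of 0.0261 and 0.0268. Cfap65 was the most abundant called member, at 62.3 ± 11.7 CPM (SD, n = 4) in control lungs and 37.8 ± 6.76 CPM (SD, n = 6) in mutants. Spag17, required for the central pair in airway cilia, had a change of -0.895 that missed the threshold (adjusted p = 0.0771). Cfap221 had a change of -1.04 with an SE of 0.382 (adjusted p = 0.377). Spef1, which bundles the central microtubules, had a change of -0.065. Spag6 had a change of 0.44, from a mean level of 0.441 CPM in controls and 0.600 CPM in mutants. Spag6l, its near copy and not a member by symbol, had a change of -0.78 (adjusted p = 0.0832), and reads of such copies can be split or lost in counting.

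Of the radial spoke genes, 3 of 9 tested were lower, with a median of -0.69. Rsph4a (chromosome 10, 33905111 to 33916021, + strand), a protein of the spoke head, was at 19.85, 18.45, 22.6 and 19.6 CPM in controls and at 9.52 to 14.3 CPM in mutants, with a median of 11.6 CPM. Its change was -0.78 (SE 0.126, adjusted p = 0.00764), and the 4 controls lay close together, above every mutant. Rsph1 (chromosome 17, 31255019 to 31277356, - strand), another head protein, was at 15.8, 14.2, 15.4 and 19.8 CPM in controls and at 7.24 to 11.8 CPM in mutants, with a median of 10.05 CPM (change -0.745, SE 0.142, adjusted p = 0.0183). Cfap206 (chromosome 4, 34688559 to 34730206, - strand), which helps dock a spoke to the doublet, was at 15.9, 14.4, 14.6 and 17.9 CPM in controls. Its mutants ran from 6.43 to 11.7 CPM with a median of 8.58 CPM (change -0.84, SE 0.151, adjusted p = 0.0139). Both groups were separate for each of the 3. Rsph3b, a spoke stalk gene with the near copy Rsph3a, had a change of 0.375, and the authors' counting may have split reads between these copies.

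All 3 nexin-dynein regulatory complex genes had changes near -0.8, and 2 of them passed the test. Drc1 (chromosome 5, 30281388 to 30366695, + strand), the scaffold of the complex, was at 16.7, 12.01, 14.03 and 14.2 CPM in controls and at 6.41 to 10.8 CPM in mutants, median 7.91 CPM. Its change was -0.82 (SE 0.152, adjusted p = 0.0146). Drc3 (chromosome 11, 60353329 to 60394341, + strand) was at 25.5, 18.6, 19.45 and 25.1 CPM in controls and at 10.9 to 16.05 CPM in mutants with a median of 13.1 CPM (change -0.78, SE 0.129, adjusted p = 0.00934). Drc7 had a change of -0.83 and an adjusted p of 0.0802, with control and mutant libraries separate. The summed level of the 3 genes was 39.7 to 50.8 CPM in controls and 23.1 to 32.2 CPM in mutants, without overlap.

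Of the tektins and microtubule inner proteins, 3 of 12 tested were lower, with a median of -0.64, and 3 were above 0. Cfap126 (chromosome 1, 171113918 to 171126967, + strand), also called Flattop, was at 20.4, 15.8, 17.5 and 17.6 CPM in controls and at 8.94 to 12.4 CPM in mutants, median 10.4 CPM. Its change was -0.77 (SE 0.122, adjusted p = 0.00682). Tekt1 (chromosome 11, 72344722 to 72362442, - strand), a tektin filament protein, was at 17.1, 14.9, 13.85 and 17.5 CPM in controls and at 7.51 to 11.4 CPM in mutants with a median of 9.92 CPM (change -0.70, SE 0.137, adjusted p = 0.0215). The libraries of both genes were separate by group. Tekt4 fell by 0.83 on the log2 scale (adjusted p = 0.0441), the highest adjusted p of the 15. Tekt2 had a change of -0.625 (adjusted p = 0.0962), and 20.8% of its exon length is shared with an opposite-strand gene, whose reads cannot be told apart from its own here. Tekt3 had the change farthest from 0 of all members, -1.15, with an SE of 0.611 (adjusted p = 0.596) at a level of 0.795 ± 0.221 CPM (SD, n = 4) in controls.

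Changes near 0 were found in 3 inner protein genes. Cfap52 was at 8.13, 8.18, 9.73 and 11.1 CPM in controls and at 7.60 to 10.7 CPM in mutants, median 9.499 CPM, a change of 0.014 (SE 0.148). Cfap20, a protein of the inner doublet junction that also occurs in non-motile cilia, was at 75.7, 70.1, 63.85 and 71.5 CPM in controls and at 62.9 to 81.3 CPM in mutants with a median of 69.8 CPM (change 0.011, SE 0.0835). Tekt5, best known from sperm, was at 10.9, 10.9, 11.7 and 12.2 CPM in controls and at 9.07 to 15.9 CPM in mutants, median 11.2 CPM, a change of 0.058. In each of the 3 the mutant range overlapped the control range. Cfap53 (-0.68, adjusted p = 0.237), Cfap161 (-0.66, adjusted p = 0.233), Cfap77 (-0.46, adjusted p = 0.614) and Cfap45 (-0.26, adjusted p = 0.567) were also not called. Opposite-strand genes share 8.4% of the exon length of Cfap52, 12.7% of Spef1 and 15.7% of Spag17.

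Of the 5 proteins that tether or link the inner dynein arms, Cfap44 was the 1 gene called. Cfap44 (chromosome 16, 44394796 to 44482428, + strand), part of a tether, was at 27.8, 14.4, 24.3 and 22.3 CPM in controls and at 7.39 to 13.9 CPM in mutants, median 11.5 CPM. Its change was -0.99 (SE 0.183, adjusted p = 0.0183), and control 2 lay only just above the highest mutant. Cfap43, its partner in the tether, was at 86.3, 79.7, 77.1 and 88.8 CPM in controls and at 60.1 to 80.8 CPM in mutants, median 68.7 CPM. Its change of -0.26 (SE 0.081, adjusted p = 0.237) did not pass the test, and the ranges overlapped. The group median was -0.70, all 5 members were below 0, and Cfap57 had -0.70 (adjusted p = 0.0844). Among the remaining 8 tested members 0 were called by edgeR or DESeq2, 2 had an unadjusted p under 0.05, and the median was -0.34. They include Cfap298 and Cfap300, which act in dynein arm assembly, Cfap58 with a change of -0.95 (adjusted p = 0.237), and Cfap97 with -0.02.

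**Figure D2:**
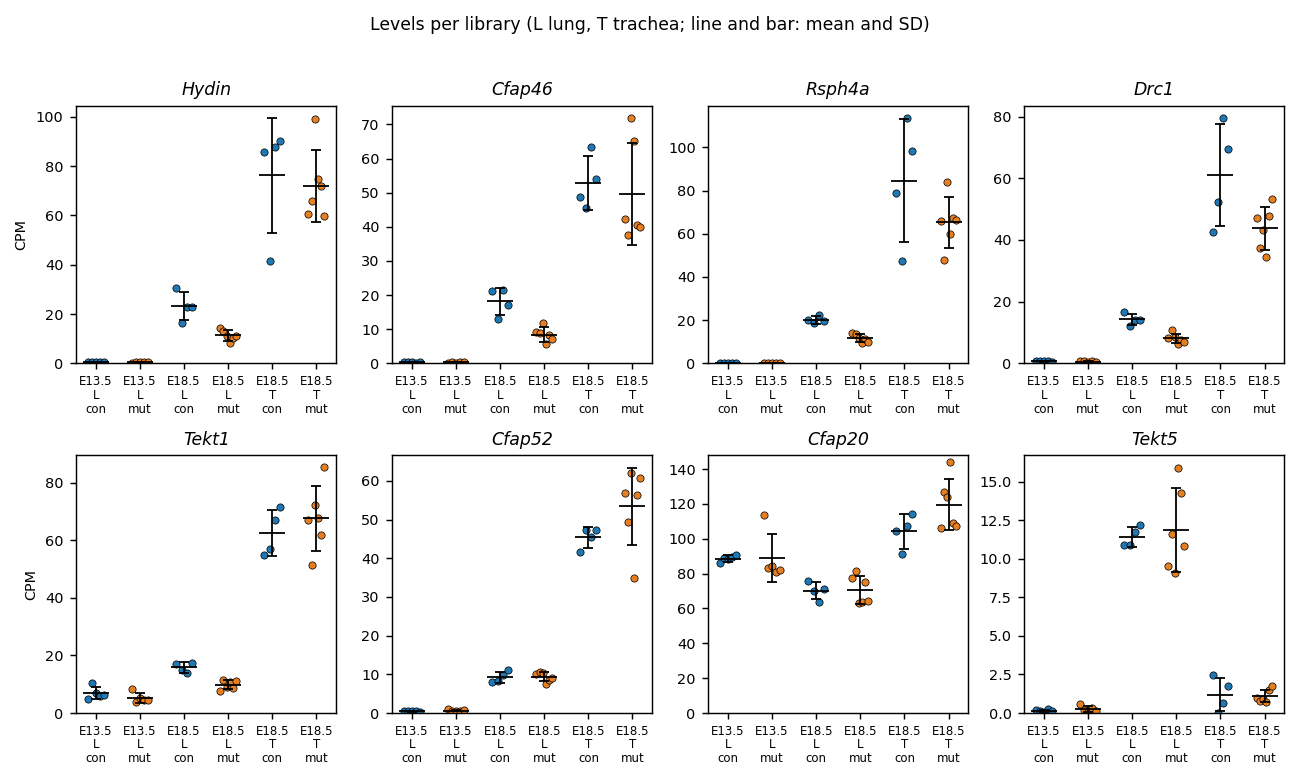
Level of selected genes in each library. Each point is 1 library's CPM (y axis, from 0, with its own scale for each gene) in the 6 groups (x axis: L lung, T trachea, con control, mut mutant), and lines and bars are group means and SD. In E18.5 lung the points of Hydin, Cfap46, Rsph4a, Drc1 and Tekt1 are separate by group, and those of Cfap52, Cfap20 and Tekt5 overlap.

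The call count in E18.5 lung depended on single control libraries. It was 4 without control 1, 8 without control 3, 6 without control 4 and 17 without control 2. In the same order, lower calls over all genes were 24 (0.135%), 44 (0.248%), 40 (0.223%) and 127 (0.713%). With every library they were 96 (0.55%). The medians of the members ran from -0.745 to -0.649 over all 10 omissions. Cfap126, Cfap74, Hydin and Rsph4a were called in all 10. With a block for the replicate number the count was 6, of which 5 were among the 15, and the median was -0.718. The block left 64 of all genes lower (0.366%). Ribosomal RNA made up between 0.0924% and 0.120% of a control library and between 0.123% and 0.169% of a mutant library. With that share as a covariate 0 members were called, 44 of 51 lay below 0 and the median was -0.53. Of all 17467 genes, 4 were then called lower (0.0229%) and 0 higher. The shares of controls and mutants did not overlap, so this fit cannot fully separate the share from genotype. Detected genes numbered 22666 to 23982 in controls and 20379 to 22769 in mutants. The part of either in the result was not tested.

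Other genes of the same cells were measured beside the members. Of 32 dynein arm, docking and assembly genes tested, 7 were lower in E18.5 mutant lungs (21 at an unadjusted p under 0.05, 13 by DESeq2), all 32 were below 0, and the median was -0.615. The 7 were Dnah2, Dnah3, Dnah5, Dnah9, Dnaic2, Zmynd10 and Ccdc40. Dnah3, an inner arm heavy chain, was at 21.2 ± 3.83 CPM (SD, n = 4) in control lungs and 10.05 ± 2.03 CPM (SD, n = 6) in mutants, a change of -1.08 (adjusted p = 0.00326). Among 12 regulators of multiciliated cells Foxj1 (-0.59, SE 0.0962, adjusted p = 0.00876) and Myb (-0.69, SE 0.139, adjusted p = 0.0256) were lower, and the median was -0.47. Of the members, 32 lay below the value of Foxj1, 14 between it and 0, and 5 above 0. Intraflagellar transport and BBSome genes, used by primary cilia of most cells as well, had a median of -0.118, with 0 of 30 called by edgeR or DESeq2 and 7 lower at an unadjusted p under 0.05. Ift172 of that list was at 87.3 ± 8.96 CPM (SD, n = 4) and 77.6 ± 6.64 CPM (SD, n = 6), a change of -0.17 (adjusted p = 0.525).

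The summed level of all members was 722 to 856 CPM in E18.5 control lungs and 526 to 648 CPM in mutants. Of 12 ciliated cell markers that are no members, 4 were lower by edgeR, 10 at an unadjusted p under 0.05 and 8 by DESeq2. Their summed level was 242 to 321 CPM in controls and 167 to 219 CPM in mutants. Secretory cell markers moved too: 2 of 5 tested were lower, Scgb1a1 by 0.90 (adjusted p = 0.000226) and Cyp2f2 by 0.43 on the log2 scale (adjusted p = 0.0256), and the sum was 1327 to 1573 CPM in controls and 761 to 1082 CPM in mutants. The 5 general epithelial markers had 0 calls, with sums of 1151 to 1352 CPM and 1178 to 1274 CPM. The part of airway cell numbers in the result was not tested.

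The 8 members at 5 CPM or more in E13.5 control lungs had a smaller median change at E18.5 than the rest. At a limit of 5 CPM in E13.5 controls, chosen after the values were seen, 8 members lay above it: Cfap20, Cfap36, Cfap43, Cfap97, Cfap298, Cfap300, Spef1 and Tekt1. Their median change in E18.5 lung was -0.066 and 1, Tekt1, was called. The other 43 tested members had a median of -0.74 and 14 calls. Just above the limit were Tekt1 at 6.94 CPM and Cfap300 at 12.1 CPM, and just below it Rsph9 at 3.68 CPM and Cfap69 at 2.98 CPM. This is a description, with no test of the split.

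**Figure D3:**
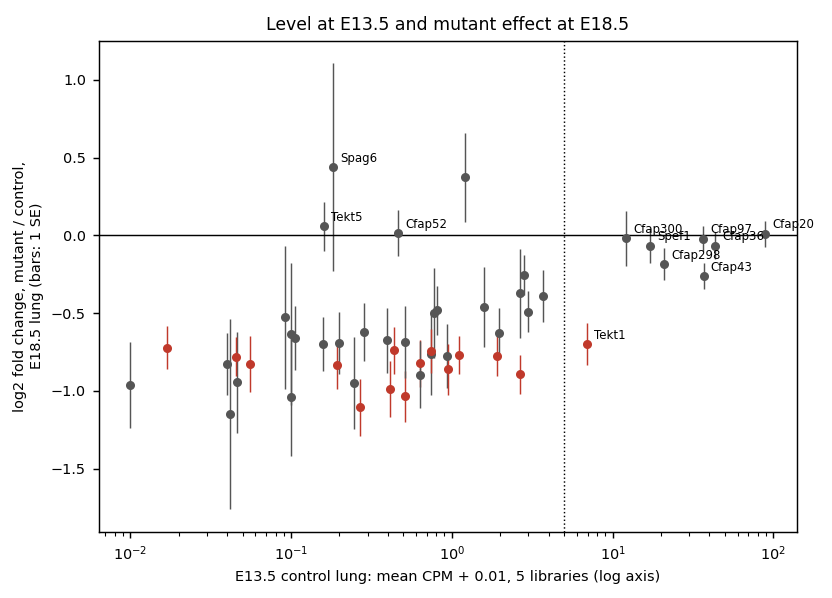
Early level and later mutant effect. Each point is a gene, with its mean CPM + 0.01 in E13.5 control lungs on the x axis (log scale) and its log2 fold change of mutant over control in E18.5 lung on the y axis. Bars are 1 SE, red points have an adjusted p under 0.05, and the dotted line is at 5 CPM. The 8 genes at 5 CPM or more lie near 0 except Tekt1 (-0.70) and Cfap43 (-0.26).

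In E13.5 lung no member passed the test. Of 32 members tested 0 were called by edgeR or DESeq2, against 0.206% of all 16486 genes called by edgeR (0.188% lower and 0.0182% higher). The number at an unadjusted p under 0.05 was 0, the lowest adjusted p was 0.998, and the median was -0.006. The remaining members did not pass the filter on low counts at this stage. Cfap74 was at 1.99, 2.18, 3.08, 2.85 and 3.19 CPM in controls 1 to 5, and at 2.79, 2.22, 4.69, 3.501 and 3.64 CPM in mutants (change 0.35). Cfap52 was at 0.488, 0.399, 0.548, 0.488 and 0.355 CPM in controls and at 0.949, 0.503, 0.490, 0.607 and 0.683 CPM in mutants (change 0.475). Tekt1 was at 4.98, 10.6, 6.83, 6.04 and 6.27 CPM in controls and at 8.24, 3.77, 5.22, 4.61 and 4.52 CPM in mutants (change -0.41). These were the changes of largest size, and in all 3 genes the groups overlapped. No member of the 32 had groups that did not overlap, where 0.74% of all genes had mutants below controls and 0.376% above. Leaving out control 1, the one without transgenes, gave 0 calls as well.

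In trachea the same genes were higher in level and showed no called difference. Of 51 members tested 0 were called by edgeR or DESeq2, against 0.071% of all 18315 genes called by edgeR (0.0655% lower and 0.00546% higher). The lowest adjusted p was 0.582, and the median was -0.097, with 31 of 51 below 0. The 5 members at an unadjusted p under 0.05, named after their values were seen, were Drc3, Drc1, Cfap58, Cfap43 and Cfap57, all below 0. Hydin was at 85.6, 41.4, 87.7 and 90.2 CPM in control tracheas 1 to 4 and at 59.8 to 99.15 CPM in mutants, median 69.0 CPM. Rsph4a was at 78.96, 47.5, 113.6 and 98.5 CPM in controls and at 48.0 to 84.0 CPM in mutants with a median of 66.2 CPM. Tekt1 was at 54.8, 56.9, 67.0 and 71.7 CPM in controls and at 51.5 to 85.45 CPM in mutants, median 67.35 CPM. The groups overlapped for each, and control 2 was the lowest control for Hydin and Rsph4a.

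Within the trachea the nexin-dynein regulatory complex had all 3 tested genes below 0, with a median of -0.37, and the tethers and linkers all 5, with a median of -0.34. Drc3 was at 89.9, 98.2, 105.3 and 116.8 CPM in controls and at 67.6 to 89.2 CPM in mutants, median 80.0 CPM, the 1 member in which every mutant lay below every control (1.22% of all genes did). No member had every mutant above every control (1.09% of all genes). Drc1 was at 42.7, 52.3, 79.6 and 69.5 CPM in controls and at 34.6 to 53.2 CPM in mutants with a median of 45.2 CPM (change -0.475). The median SE of the members was 0.184 in trachea and 0.172 in lung, and the biological coefficient of variation over all genes was 0.37 in trachea and 0.184 in lung. Ribosomal RNA ran from 0.983% to 15.7% of counts over the tracheas and was highest in mutants 2, 3 and 4 (7.56%, 7.67% and 15.7%), and its part was not tested. Without those libraries 0 members were called and the median was -0.144. Without control 4 the median turned to 0.009 (24 of 51 below 0), without control 2 it was -0.203 (37 of 51) and without mutant 3 it was -0.163 (37 of 51).

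The difference between the effects in trachea and lung was tested itself, in a fit of both tissues. It was above 0, that is, less negative in trachea, in 47 of 51 members, with a median of 0.50 where all genes had 0.073. None was called by edgeR (0 of 51, where 0.0252% of all genes were called, 0.00504% higher and 0.0201% lower), although 22 had an unadjusted p under 0.05, and the lowest adjusted p was 0.133. DESeq2 called 3 members higher, where it called 44 of all 19859 genes higher and 20 lower. Named after their values were seen, the 3 were Tekt1 (0.83), Tekt4 (1.02) and Cfap54 (0.89). That fit did not pair the organs. With lungs and tracheas of the same number paired, the median was 0.55, with 2 of 51 below 0 and 0 called by edgeR. For the 15 members called in lung the difference ran from 0.39 to 1.05 with a median of 0.82, and their median in trachea was -0.097. Those 15 were chosen by the lung values that enter the difference, so it is a description.

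The difference between E18.5 and E13.5 lung had a median of -0.555 over the 51 members tested, with 41 below 0. Only 32 of them passed the filter within E13.5 lung, and the others entered through their E18.5 level. Drc7, for example, had 4 reads over the E13.5 controls and 0 over the mutants, so such values say little. By edgeR 0 were called (0.0268% of all genes were, 0.0161% lower and 0.0107% higher), 13 had an unadjusted p under 0.05, all lower, and the lowest adjusted p was 0.0755. DESeq2 called 2 members lower, where it called 18 of all 18639 genes lower (0.0966%) and 23 higher. The 2 were Cfap74 (-1.25) and Drc3 (-1.05), also named after their values were seen. In edgeR without single libraries 0 to 2 members were called, each time Cfap74, Drc3 or both. Without E13.5 mutant replicate 1 the median was -0.349.

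Most members were higher in control lungs at E18.5 than at E13.5. Of 51 tested, 45 were higher at E18.5 and 3 lower, with a median of 3.996 on the log2 scale, against 74.7% of all 18639 genes called (37.4% higher and 37.3% lower). Many members entered this test only through their E18.5 level, so the count is a description. Rsph4a was at 0.0357 ± 0.0427 CPM (SD, n = 5) in E13.5 controls and 20.1 ± 1.76 CPM (SD, n = 4) in E18.5 controls, a change of 8.88. Tekt4 went from 0.0456 to 10.9 CPM (change 7.76) and Drc7 from 0.0302 to 8.39 CPM (change 7.90). Cfap65 had 1 read over the 5 E13.5 controls and 7096 over the 4 E18.5 controls, a ratio of 8080 per count sequenced (95% exact counting interval 1450 to 319000). Rsph14 had 0 reads at E13.5 and 390 at E18.5, at least 148-fold higher against 3 reads over the group.

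The members that were lower at E18.5 were Cfap300 (-0.84), Cfap36 (-0.54) and Cfap20 (-0.34). Cfap20 was at 85.9, 89.2, 88.4, 89.55 and 90.45 CPM in E13.5 controls and between 63.85 and 75.7 CPM in E18.5 controls, with no overlap. Cfap97, Cfap298 and Rsph3a did not pass the test. The intraflagellar transport list had a median of -0.125 with 8 higher and 10 lower of 30. The dynein arm list had 28 higher and 2 lower of 32 with a median of 3.09. Stage cannot be told apart from the lobes taken and from the separate count tables. Rsph6a and Cfap97d1 were tested in no comparison: Rsph6a had 0 to 3 reads in each group and Cfap97d1 0 to 37.

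**Figure D4:**
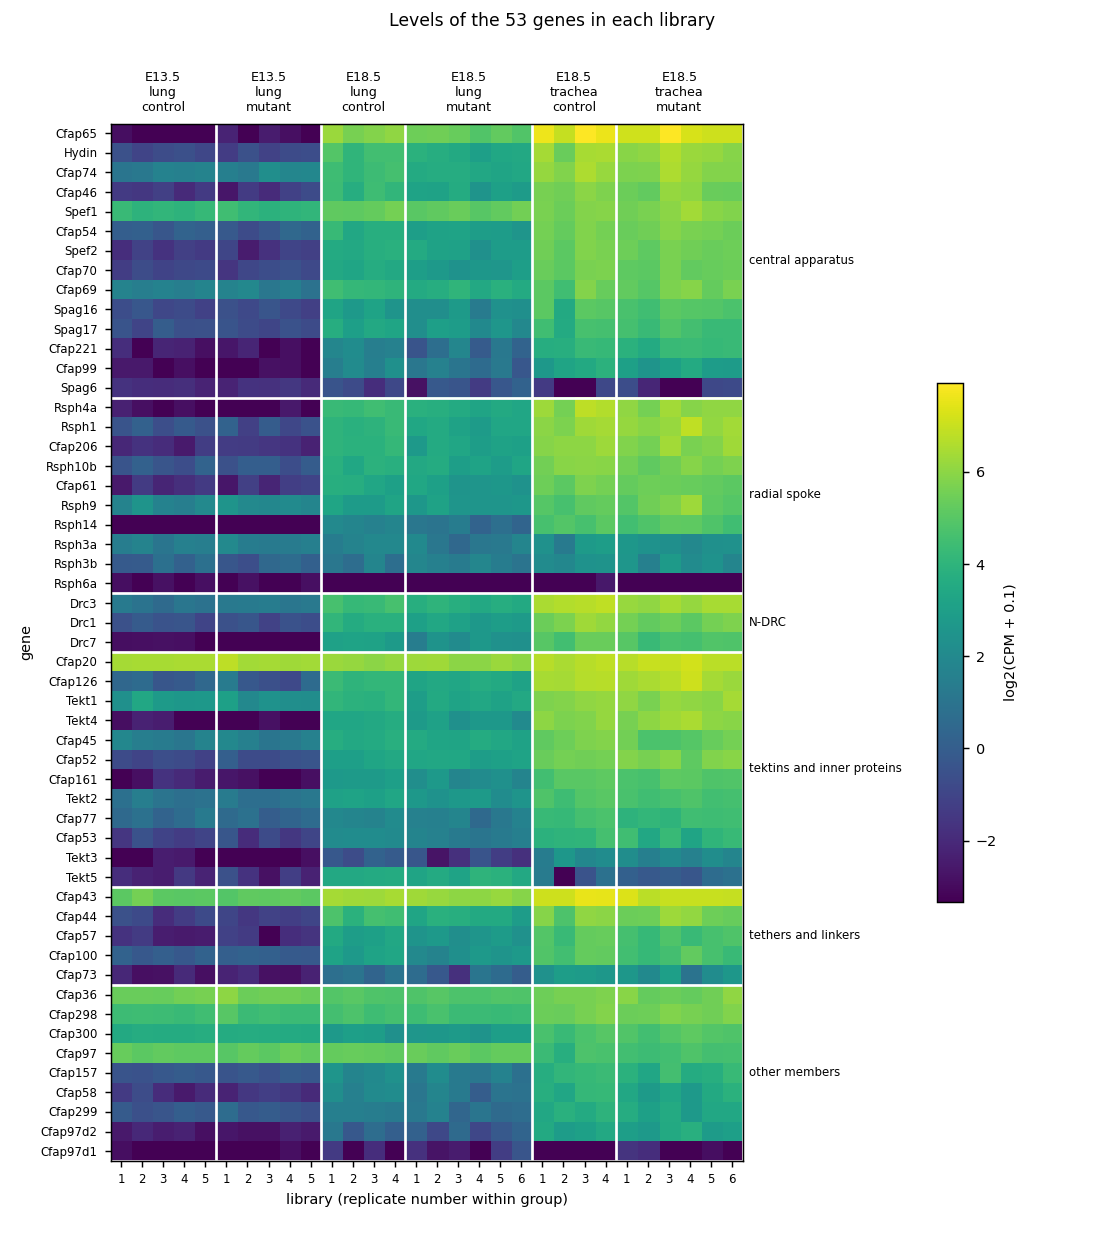
Level of each gene in each library. Colour is log2(CPM + 0.1), genes are rows ordered by structure (N-DRC is the nexin-dynein regulatory complex), and libraries are columns ordered by group, with dark blue for low and yellow for high. Most rows brighten from E13.5 lung to E18.5 lung and again to trachea, while Cfap20, Cfap36, Cfap97, Cfap298 and Spef1 are bright at all 3 and Tekt5 is brightest in E18.5 lung.

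Control trachea held more of nearly all members than control lung at E18.5. Of 51 tested, 48 were higher in trachea and 2 lower, with a median of 2.03, against 49.1% of all 19859 genes called (24.5% higher and 24.6% lower). With the lung and trachea of the same replicate number paired, 47 were higher and 2 lower, 49 of the 50 shared. The largest gains were Rsph14 (3.16), Cfap97d2 (2.88), Cfap77 (2.69), Tekt4 (2.56) and Cfap126 (2.50). Rsph14, a spoke protein gene, was at 3.87, 3.34, 2.97 and 3.37 CPM in control lungs and at 25.3, 30.1, 24.99 and 34.2 CPM in control tracheas. Cfap126 was at 86.9, 84.1, 102.4 and 105.7 CPM in control tracheas, against at most 20.4 CPM in lung. The summed level of the members was 1833 to 2622 CPM in control tracheas, above the 722 to 856 CPM of control lungs. By structure the medians were 1.75 for the central apparatus, 2.16 for the spokes, 2.19 for the regulatory complex, 2.19 for tektins and inner proteins and 1.87 for tethers and linkers.

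The members that went the other way were Tekt5 and Cfap97. Tekt5 was at 10.9, 10.9, 11.7 and 12.2 CPM in control lungs and at 2.44, 0, 0.645 and 1.72 CPM in control tracheas, a change of -3.08 (SE 0.484, adjusted p = 8.33e-06), with the groups far apart. The male germ line markers, all genes of late sperm formation, summed to 0 CPM in all 4 of those lungs. Genes of that stage cannot show earlier germ cells, so the source of the Tekt5 reads was not tested. Cfap97 was at 39.0, 40.0, 38.8 and 36.7 CPM in lung and at 20.3, 13.4, 27.7 and 25.75 CPM in trachea, a change of -0.73 (SE 0.155, adjusted p = 0.00034). Spag6 had a change of -1.09 that did not pass the test. The dynein arm list had 30 of 32 higher with a median of 1.96, and the intraflagellar transport list 24 of 30 with a median of 0.66. Cell type markers differed widely between the organs: 12 of 12 ciliated, 6 of 6 secretory, 5 of 6 basal and 6 of 6 cartilage markers were higher in trachea, and 5 of 5 markers each of alveolar type 1 and type 2 cells were lower. The part of cell makeup in these levels was not tested.

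**Figure D5:**
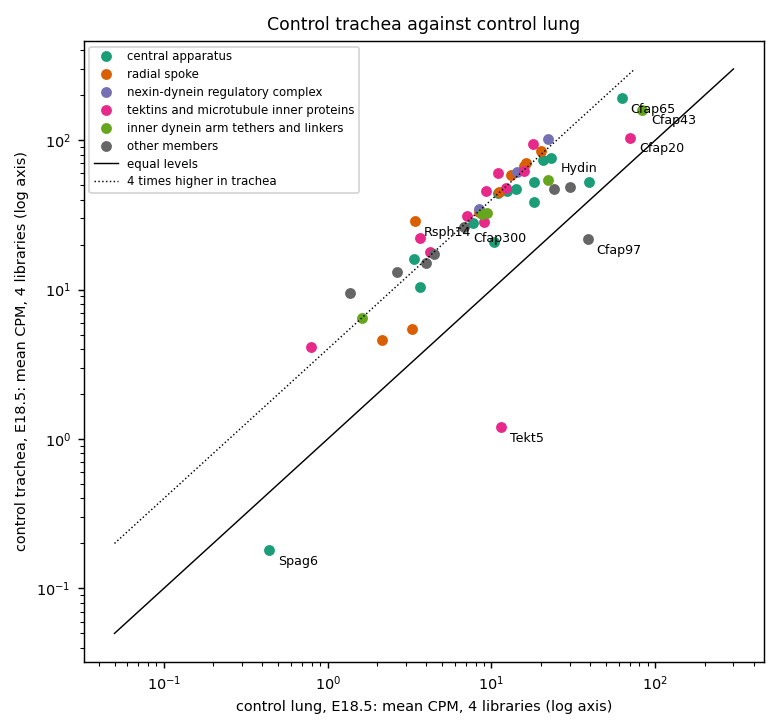
Control trachea against control lung at E18.5. Each point is a gene, with its mean CPM in control lung on the x axis and in control trachea on the y axis, both log scales. Colours are structures, the solid line marks equal levels and the dotted line a level 4 times higher in trachea. Most points lie near the dotted line (median change 2.03 on the log2 scale), and Tekt5, Cfap97 and Spag6 lie below the line of equal level.

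Levels can be ordered across genes per kilobase of exon. In E13.5 control lungs Cfap20 was first at 19.9 CPM per kilobase, ahead of Cfap36 at 15.8 and Cfap298 at 15.5 CPM per kilobase. In E18.5 control lungs Cfap298 was first at 17.8 ± 1.93 CPM per kilobase (SD, n = 4), then Cfap20 at 15.8 ± 1.10 and Spef1 at 14.4 ± 2.11, and these neighbours did not differ beyond their spread. The exons of Cfap298 are shared with an opposite-strand gene over 44.2% of their length, so its place is uncertain. In control tracheas Rsph1 led at 60.8 CPM per kilobase, followed by Cfap126 at 53.4, Tekt4 at 39.6 and Tekt1 at 38.6 CPM per kilobase. Lowest in E18.5 control lungs was Rsph6a, at 0 reads. The 4 leading genes in trachea belong to the spokes and the doublet lining. The 3 leading genes in E13.5 lung had mutant changes between -0.18 and 0.01 in E18.5 lung.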

How the data were processed

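PolyA RNA was sequenced as single reads after an unstranded TruSeq V2 preparation, per the labels. STAR alignment to GRCm38 by the authors is recorded in the submitters' processing notes, without a version. The deposited raw counts per gene were made with featureCounts 1.6.2 at default options on GENCODE vM17, per the file headers. Reads of near-identical copies or overlapping genes are therefore partly lost, and antisense reads are not separated. Symbols came from GENCODE vM21, where 53620 of 53715 gene IDs matched.

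Each tissue and stage was fitted with edgeR 4.0.16 (R 4.3.3): TMM scaling, filterByExpr (count minimum 10), a robust quasi-likelihood test, two-sided, Benjamini-Hochberg adjusted over all genes, threshold 0.05. SE was the fold change's size over the square root of F. Differences between tissues and stages were contrasts in joint fits, whose scaling multiplied levels by 0.9957 (E13.5 lung), 0.9789 (E18.5 lung) and 1.025 (trachea). Separate animals per replicate are not stated beyond 1 organ per library. The p-values set each difference against the spread between these libraries, whose independence as animals is not known. Counting intervals cover counting error only. Control lungs and tracheas of the same number deviated together (correlations 0.113 to 0.2 in 4 of 4 pairs). In mutants these correlations were 0.028 to 0.185, and 5 of 6 were best with their own number. Same-numbered control lungs of E13.5 and E18.5, which cannot share an embryo, also correlated, at 0.076 to 0.112. The number therefore does not establish a shared embryo. The main fits did not pair lungs and tracheas, and a block for the replicate number did so as an alternative. DESeq2 1.42.0, other scaling, no filter, a replicate block, covariates and left-out libraries were the alternatives, and the tests were checked on simulated data.

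The genes, structural lists and tests were chosen with earlier results of these data known. Values are given for the 12 members with the smallest p in E18.5 lung, the most abundant of each structure and those of largest change in each comparison. They are also given for further members named after their values were seen. Most levels are listed by library for controls and as a range and median for E18.5 mutants.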

Additional observations from a re-analysis of the deposited data

Results flagged for a closer look

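Of 93 gene and group combinations looked at, 6 held a library far from the others by Dixon's criterion, which flags about 1 in 20 groups by chance. In E13.5 lung, control replicate 2 had Cfap43 at 48.4 CPM, against 32.9 to 34.5 CPM in the other controls. In the same tissue mutant replicate 1 stood high for 3 genes: Spef1 at 22.5 CPM (others 15.1 to 17.1), Cfap36 at 65.1 CPM (others 41.4 to 45.2) and Cfap20 at 114 CPM (others 81.2 to 84.4). In trachea, control replicate 2 had Hydin at 41.4 CPM, against 85.6 to 90.2 CPM in the other controls. Mutant replicate 3 had Cfap65 at 241 CPM, against 134 to 153 CPM in the other mutants.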

How the results depend on the processing

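In E18.5 lung the 15 lower calls became 6 with a replicate block (Cfap46, Hydin, Cfap74, Rsph4a, Cfap126 and Cfap100, of which 5 are among the 15), 0 with the ribosomal RNA share as a covariate, and 4 to 17 when single libraries were left out. They stayed at 15 with DESeq2's size factors and with a length slope, were 19 with no filter, and 22 by DESeq2. Over all genes, 0.55% were lower in the main fit, 0.366% with the block and 0.0229% with the covariate. The share was 0.135% to 0.713% with single libraries left out, 0.565% with no filter and 1.24% by DESeq2. Same-numbered control and mutant libraries correlated at 0.018 to 0.186 in E18.5 lung, where 3 of 4 were best with their own number. The correlations were -0.199 to -0.01 in E13.5 lung and -0.268 to 0.193 in trachea. Whether the number marks a shared batch in E18.5 lung is not known, so both counts are given. The block changed no call count in E13.5 lung or trachea, where it gave 0. For the difference between the lung stages, 0 lower calls became 2 by DESeq2, 1 with no filter and 0 to 2 with single libraries left out. For the difference between trachea and lung, 0 higher calls became 3 by DESeq2. The cause of these shifts was not tested.

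Among the genes named for a comparison, the sign of a log2 fold change that had not been called turned in the following cases; over all 51 members, 48 were below 0 in E18.5 lung under the block, against 46. E13.5 lung: Cfap100 was 0.008 under the block, and Cfap20 -0.004 with no filter and -0.008 under the block. E18.5 lung: Cfap97 was 0.063 with the ribosomal RNA covariate and 0.003 with the length slope, and Cfap36 0.023 with the covariate. Trachea: under the block Hydin was 0.015, Cfap44 0.143 and Cfap36 -0.125. With no filter Cfap36 was -0.004 and Cfap126 -0.011. Without the libraries over 5% ribosomal RNA, an alternative added after seeing the data, Cfap298 was -0.006 and Cfap126 -0.239, and with the log2 share as a covariate, also added, Cfap126 was -0.21.

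With single libraries left out, signs also turned for these named genes, given as ranges. E13.5 lung: Spef1 -0.09 to 0.074, Cfap43 -0.143 to 0.015, Cfap100 -0.073 to 0.051, Cfap97 -0.044 to 0.057, Rsph3a -0.077 to 0.117 and Cfap20 -0.097 to 0.033. E18.5 lung: Spef1 -0.128 to 0.034, Cfap97 -0.049 to 0.011 and Cfap20 -0.036 to 0.045. Trachea: Hydin -0.291 to 0.004, Cfap44 -0.257 to 0.075, Cfap36 -0.105 to 0.069, Cfap298 -0.035 to 0.144, Rsph1 -0.001 to 0.254 and Cfap126 -0.115 to 0.07. Depth limits the members with few reads, above all in E13.5 lung, where 32 of 53 could be tested.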
